A study of Mus musculus with 27 samples.

Results

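The limb bud organoid and embryo transcriptomes were searched for 10 genes of the Wnt pathway. They are the ligands Wnt3a, Wnt5a, Wnt7a and Wnt11, the agonists Rspo1 and Rspo3, the transcription factors Lef1 and Tcf7, and the target genes Axin2 and Sp5. The genes were picked by name, 10 of the 23279 genes listed, and every one of the 10 passed the filter on low values (at least 1 CPM in 2 libraries, CPM being reads per 1000000 reads on genes). Wnt3a passed it only through the tail bud libraries.

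Wnt ligands are secreted, lipid-modified proteins that bind Frizzled receptors with the co-receptors Lrp5 and Lrp6. In the canonical branch this stabilizes β-catenin, which enters the nucleus, binds the TCF/LEF factors and switches on targets such as Axin2 and Sp5. R-spondins bind Lgr receptors and keep the ubiquitin ligases Rnf43 and Znrf3 from removing Frizzled, so that cells respond more strongly to the same ligand. In the limb bud, Wnt7a from the dorsal ectoderm patterns the dorsal side, ectodermal canonical signalling maintains the apical ridge, and Wnt5a in the distal mesenchyme drives outgrowth through Ror2.

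The series compared ES-derived limb buds with embryonic tissue. ES-FLB and ES-HLB were forelimb-type and hindlimb-type limb bud tissue grown from EB5 mouse ES cells heterozygous for a Hand2::GFP knock-in, a single line, and collected on culture day 9 as cells sorted for the reporter, which stands in a gene of limb bud mesenchyme. Both types had been given a pulse of recombinant Wnt3 protein that was washed out before collection. By the methods of the study both had also received BMP4 with Matrigel, later a BMP inhibitor, and hydrocortisone. They differed in retinoic acid, which was added for ES-FLB and blocked for ES-HLB. The embryonic groups were unsorted tissue amputated from several Slc:ICR embryos, namely early forelimb buds (FLBs) and hindlimb buds (HLBs), FLBs and HLBs at E10.5, and 3 further E10.5 tissues, the tail bud (TB), the heart (Ca) and the branchial arch (BA). The labels give E10.0 for both early limb buds, while the figure legend of the study places the early FLBs earlier and the early HLBs later. Strain, sorting and culture therefore differed together between ES-derived and embryonic groups and cannot be told apart. Each group had 3 libraries, except that replicate 2 of the E10.5 HLBs was left out. In that library 3959 of 3971 genes of the missing stretch, Wnt7a and Wnt11 among them, were listed at 0 although both other replicates had over 2 CPM, and 26 libraries were used.

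The estimated number of reads on genes was 19642121 to 22142509 in the early limb buds, 5543760 to 5908873 in the E10.5 limb buds, and 6569914 to 8541971 in the other groups. Depth thus differed with the stage of the limb buds. The floor of detection, set at 3 reads, was 0.135 to 0.541 CPM, a limit that covers counting error only. Marker lists followed the labels. The summed level of 7 cardiomyocyte genes was 11448 to 13575 CPM in Ca and at most 15.2 elsewhere, that of 3 branchial arch genes was 273 to 293 in BA and at most 17.0 elsewhere, and that of 5 tail bud genes was 224 to 267 in TB and at most 4.99 elsewhere. No label says that replicates came from separate cultures or litters, so p-values measure the spread between these samples. In bulk RNA, fewer cells of a type and less RNA per cell cannot be told apart.

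The 10 genes lie on 8 chromosomes of GRCm38 (mm10), all protein-coding. Rspo1 is at chr4:124986401-125009102, Wnt7a at chr6:91363981-91411353, Wnt11 at chr7:98835084-98854747, Rspo3 at chr10:29453106-29535867 and Wnt5a at chr14:28504543-28527448. Chromosome 11 carries 3 of them, Tcf7 at chr11:52246527-52283383, Wnt3a at chr11:59248036-59290751 and Axin2 at chr11:108917828-108950783, which are far apart. Lef1 is at chr3:131110297-131224357 and Sp5 at chr2:70474923-70477726. Tcf7 shares 17144 bases with Gm26551 on the same strand, and Tcf7, Lef1, Rspo1, Rspo3, Wnt5a and Axin2 overlap antisense RNAs. None of these partners is a row of the table, and the strand setting of the counting is not given in the sources used here, so their reads cannot be separated.

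TCF/LEF factors bind the core CTTTGA on either strand (TCAAAG on the other). RefSeq promoter windows of GRCm38.p6 were found for 8 of the 10 genes, in 13 windows, and the 250 bases before each start were searched. The core was present in 13.83% of 32851 windows of all genes, and in 1.367% it occurred 2 or more times. Sp5 and Axin2 are shown as the targets among the 10, and Lef1 because 1 of its alternative starts held 2 cores as well. The Axin2 window lies before a RefSeq start that is inside the gene as placed above, so the bases before the first annotated start are not in it. Capitals mark the core.
Sp5 (chr2:70474673-70474922, plus strand): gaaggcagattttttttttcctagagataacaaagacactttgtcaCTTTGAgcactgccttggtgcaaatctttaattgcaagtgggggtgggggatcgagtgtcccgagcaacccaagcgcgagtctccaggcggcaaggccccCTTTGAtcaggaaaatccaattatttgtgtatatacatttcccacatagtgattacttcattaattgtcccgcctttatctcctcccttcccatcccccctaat
Axin2, start inside the gene (chr11:108920099-108920348, plus strand): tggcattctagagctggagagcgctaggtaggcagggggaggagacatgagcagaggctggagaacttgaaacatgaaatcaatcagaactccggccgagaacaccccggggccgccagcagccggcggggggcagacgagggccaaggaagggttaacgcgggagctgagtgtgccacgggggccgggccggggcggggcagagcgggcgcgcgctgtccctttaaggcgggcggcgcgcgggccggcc
Lef1, internal start (chr3:131156044-131156293, plus strand): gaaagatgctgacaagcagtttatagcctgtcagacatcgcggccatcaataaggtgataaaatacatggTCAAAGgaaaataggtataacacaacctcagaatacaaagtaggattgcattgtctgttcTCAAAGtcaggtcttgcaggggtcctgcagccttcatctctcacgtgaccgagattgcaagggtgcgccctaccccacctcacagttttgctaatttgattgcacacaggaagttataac
The Sp5 window held 2 cores, which began 204 and 104 bases before the start, and the internal Lef1 window held 2 at 180 and 120 bases. Of the other windows, only 1 of the 2 of Wnt11 (chr7:98834862-98835111, plus strand) held a core, 50 bases before the start. The Axin2 window held none, like the other 3 windows of Lef1 and both windows of Tcf7. Both Tcf7 windows also lie inside the gene as placed above, so the bases before its first annotated start were not searched. A match is a description of these letters only, and no binding was measured.

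**Figure D1:**
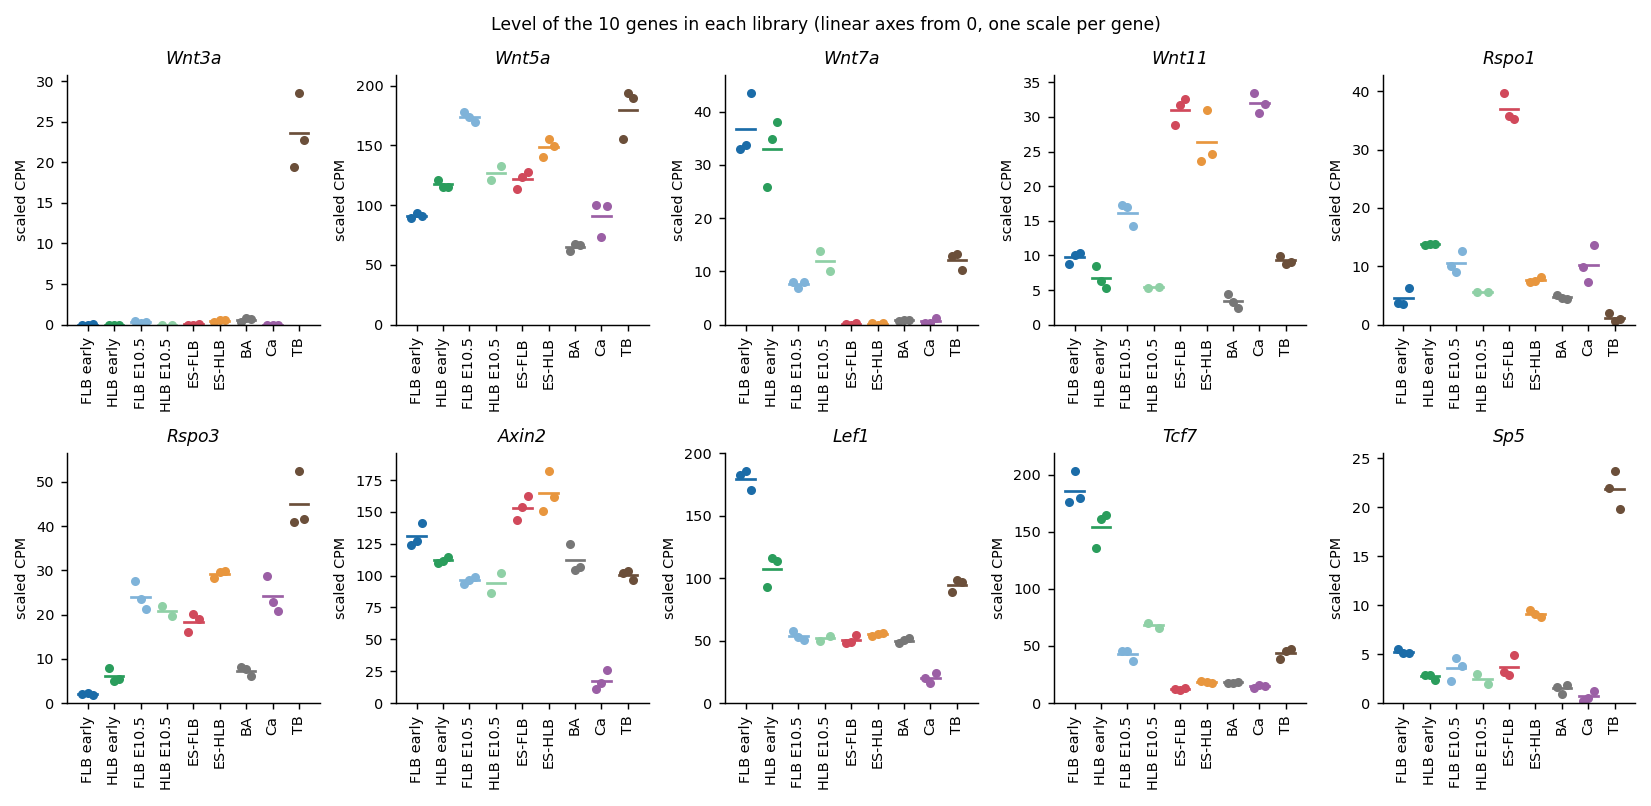
Level of each of the 10 genes in scaled CPM (vertical axes, linear from 0, a scale of its own per gene) in the 26 libraries used (points) of the 9 groups (horizontal axes), with the group mean as a line. Wnt3a stands out in TB, Wnt7a, Lef1 and Tcf7 in the early limb buds, Rspo1 in ES-FLB and Sp5 in TB.

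The ligands had little in common in where they were expressed. Levels are given as scaled CPM, CPM after scaling of the libraries to each other, and are compared between groups but not between genes, since CPM does not correct for gene length. Wnt7a was highest in the early limb buds. It was 32.9, 33.7 and 43.5 in the early FLBs and 25.8, 34.9 and 38.0 in the early HLBs. At E10.5 it was 6.90 to 8.09 in the FLBs and 13.9 and 10.1 in the HLBs. TB reached 10.3 to 13.3, which overlapped the E10.5 HLBs. BA had 0.669 to 0.940 and Ca 0.280 to 1.21. In the sorted ES-derived cells Wnt7a was close to absent, with 1, 0 and 2 reads in ES-FLB and 3, 0 and 2 reads in ES-HLB, at or below the floor in every library.

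Wnt3a, a ligand of the elongating body axis, was a tail bud transcript in these data. TB libraries had 19.5, 28.5 and 22.8 scaled CPM. No other library exceeded 0.809, a value that rests on 7 reads in BA replicate 2. ES-HLB had 3, 4 and 5 reads and ES-FLB 0, 0 and 1. The early HLB, E10.5 HLB and Ca libraries had 0 reads each, and the early FLBs had 1 read in 1 of 3 libraries. The next level, that of BA, overlapped ES-HLB.

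Wnt5a was expressed in every group within a narrow range. Its group means ran from 65.4 ± 3.3 (SD, n = 3) in BA to 180 ± 21 (SD, n = 3) in TB. The E10.5 FLBs (169, 174 and 178) overlapped TB. ES-HLB (141 to 156) lay below them, followed by the E10.5 HLBs (121 and 133), ES-FLB (113 to 128) and the early HLBs (116 to 121), neighbours that overlapped in that order. Below these came the early FLBs (89.2 to 93.2), which overlapped Ca (73.4 to 99.9).

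Wnt11, a mostly non-canonical ligand known from heart morphogenesis, was highest in Ca and in both ES-derived groups. Ca had 33.5, 30.6 and 31.9, ES-FLB 28.8, 31.8 and 32.6, and ES-HLB 23.7, 30.9 and 24.6, and these 3 groups overlapped as neighbours. All other libraries were lower. The E10.5 FLBs had 14.3 to 17.3, the early FLBs 8.82 to 10.3, TB 8.81 to 9.92, the early HLBs 5.32 to 8.53, the E10.5 HLBs 5.31 and 5.49, and BA 2.35 to 4.46. The embryonic limb buds thus separated by type at E10.5, with every FLB library above both HLB libraries.

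The R-spondins marked different groups. Rspo1 was highest in ES-FLB, with 39.7, 35.8 and 35.2, above every other library of the series. The early HLBs came next (13.6, 13.8 and 13.9). The E10.5 FLBs had 10.02, 9.04 and 12.6, Ca 7.27 to 13.7 and ES-HLB 7.36, 7.53 and 8.09. The E10.5 HLBs had 5.68 and 5.67, BA 4.47 to 5.13, the early FLBs 3.77, 3.49 and 6.30, and TB 0.580 to 1.98. Forelimb and hindlimb types therefore stood in opposite order in vitro and in the early embryo.

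Rspo3 was highest in TB, with 40.9, 52.4 and 41.7, and lowest in the early FLBs, with 2.13, 2.19 and 1.83. ES-HLB had 28.3, 29.5 and 29.8, Ca 20.8 to 28.7, the E10.5 FLBs 21.2 to 27.5, the E10.5 HLBs 22.0 and 19.7 and ES-FLB 16.0, 20.2 and 19.0. Neighbours among these 5 groups overlapped. BA had 6.11 to 8.25 and the early HLBs 7.86, 4.94 and 5.37. The early limb buds of both types were thus below every ES-derived and every E10.5 limb bud library.

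Of the TCF/LEF factors, Tcf7 spanned the wider range. It was 176, 203 and 180 in the early FLBs and 136, 161 and 165 in the early HLBs. The E10.5 HLBs had 70.3 and 65.9, TB 38.8 to 47.4 and the E10.5 FLBs 45.7, 45.9 and 37.0. ES-HLB had 19.0, 18.8 and 17.3 and overlapped BA at 17.8 to 18.6. Ca had 13.2 to 15.7 and ES-FLB, the lowest group, had 12.4, 11.4 and 12.8. Lef1 was likewise highest in the early FLBs, with 183, 185 and 170, above the early HLBs at 93.2, 116 and 113, which overlapped TB at 88.7 to 98.4. ES-HLB (53.6, 55.5 and 55.7), the E10.5 FLBs (57.7, 52.6 and 50.6), the E10.5 HLBs (49.5 and 54.0), ES-FLB (48.4, 48.9 and 54.5) and BA (47.7 to 51.7) could not be ordered, as each overlapped the next. Ca was lowest with 15.9 to 23.7. ES-derived cells were thus below the E10.5 limb buds for Tcf7 and overlapped them for Lef1.

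Axin2, which encodes a feedback inhibitor that helps to degrade β-catenin and is widely used as a readout of canonical signalling, was the most evenly expressed outside the heart. Group means ran from 94.2 ± 11.5 (SD, n = 2) in the E10.5 HLBs to 165 ± 16 (SD, n = 3) in ES-HLB. ES-HLB (150, 182 and 162) and ES-FLB (144, 154 and 163) overlapped each other and lay above every embryonic library. Ca had 11.0, 15.7 and 26.1, well below the other groups. Sp5, a transcription factor gene directly activated by β-catenin, was highest in TB, with 22.0, 23.6 and 19.8. ES-HLB followed with 9.48, 9.06 and 8.79. The early FLBs had 5.47, 5.16 and 5.06, ES-FLB 3.22, 2.81 and 4.90, the E10.5 FLBs 2.21, 4.60 and 3.79, and the early HLBs 2.91, 2.88 and 2.38. The E10.5 HLBs had 2.93 and 1.95, BA 0.924 to 1.88 and Ca 0.255 to 1.21. Of these groups, ES-FLB, the E10.5 FLBs, the early HLBs and the E10.5 HLBs overlapped as neighbours, and so did BA and Ca.

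The comparison of ES-derived mesenchyme with the early limb bud of the same type sets cells sorted for the Hand2 reporter against unsorted tissue. It does not measure the whole organoid with its epithelium. The study detected ectodermal Wnt7a in its ES-derived limb buds by qPCR only, at low levels. Differences are on the scale of log2(scaled CPM + 0.5), which understates the change of low genes, and a call is an adjusted p under 0.05 from limma with Benjamini-Hochberg adjustment over 14681 genes. Between ES-FLB and the early FLBs 7 of the 10 genes were called, 4 higher and 3 lower in ES-FLB. Of all genes tested, 76.1% were called, 35.2% higher and 40.9% lower, so the count by itself does not set the 10 genes apart. Between ES-HLB and the early HLBs all 10 were called, 6 higher and 4 lower, against 74.5% of all genes (34.6% higher and 39.9% lower).

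**Figure D2:**
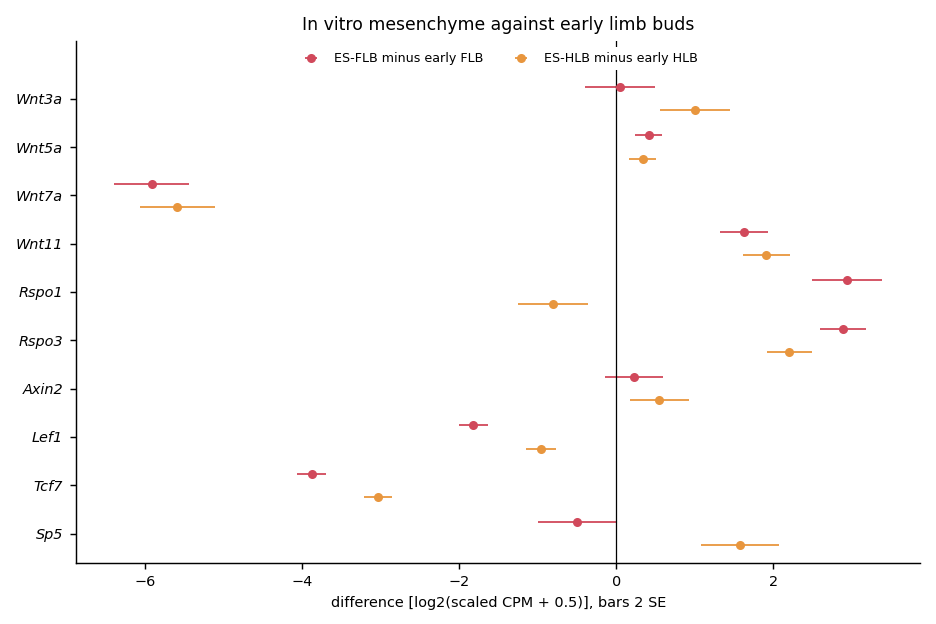
Difference between ES-derived cells and the early limb bud of the same type for each gene, in log2(scaled CPM + 0.5) with bars of 2 SE, for the forelimb type (red) and the hindlimb type (orange). Wnt7a and Tcf7 lie far to the left in both types, Rspo3 and Wnt11 to the right in both, and Rspo1 and Sp5 differ between the types.

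Wnt7a and Tcf7 differed most among the 10, and both were lower in vitro. Wnt7a differed by −5.91 (SE 0.24, adjusted p = 1.76e-20) in ES-FLB and by −5.59 (SE 0.24, adjusted p = 1.37e-19) in ES-HLB, and since the sorted cells held at most 3 reads of it, no fold is given. Tcf7 was 15.3-fold lower in ES-FLB (log2 −3.88, SE 0.09, adjusted p = 2.84e-26) and 8.39-fold lower in ES-HLB (log2 −3.03, SE 0.09, adjusted p = 2.99e-23). Lef1 was 3.55-fold lower in ES-FLB (log2 −1.82, SE 0.09) and 1.96-fold lower in ES-HLB (log2 −0.96, SE 0.09). For these genes no library of the ES-derived groups overlapped an early limb bud library. The share of all genes without such overlap was not counted.

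Markers of other cell types moved with these genes. The summed level of 8 surface ectoderm genes, all above 3 reads in every library of these groups, was 390 to 491 in the early FLBs and 109 to 167 in ES-FLB, and 359 to 423 in the early HLBs and 219 to 237 in ES-HLB. The summed level of 3 apical ridge genes (Fgf8, Fgf4 and Sp8), of which 2 were above 3 reads in every library of ES-FLB and of the early FLBs and all 3 in both hindlimb types, fell from between 60.2 and 73.9 to between 1.79 and 1.91 for the forelimb type and from between 81.3 and 90.9 to between 5.49 and 5.85 for the hindlimb type. Endothelial genes (5 of 5 detected) went from between 303 and 321 to between 22.6 and 25.7 and from between 303 and 372 to between 34.3 and 38.9. Erythroid genes were 2279 to 4233 in the early FLBs and 5.02 to 7.66 in ES-FLB, with 3 of 4 detected there, and 3246 to 6702 in the early HLBs and 81.0 to 152 in ES-HLB. Within these lists 3 genes stood in the other order. Krt5 was 34.9 in ES-FLB and 26.6 in the early FLBs, and 62.9 and 54.1 in the hindlimb type. Krt14 was 7.27 and 3.18, and 17.9 and 3.90. The ridge gene Fgf4 was at 0.573 and 0.0353, and at 3.15 and 1.86. The sum of 9 limb mesenchyme genes was 1926 to 2002 in ES-FLB against 1338 to 1346, and 1983 to 2021 in ES-HLB against 1575 to 1623, but its members did not move together. Means of Prrx1, Twist1, Pdgfra and Hand2, the gene of the sorted reporter, were higher in both ES-derived types, whereas Prrx2 was 74.2 against 132 and 41.2 against 94.5, and Fgf10 27.6 against 71.5 and 17.1 against 50.9. The genes of limb type were lower in vitro too, Tbx5 at 69.3 against 100.1 in the forelimb type, and Tbx4 at 55.2 against 139 and Pitx1 at 68.6 against 245 in the hindlimb type. No gene of these 5 lists was at 0 in a whole group, and their part in the lower levels of Wnt7a, Tcf7 and Lef1 was not tested.

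The genes that were higher in the ES-derived cells of both types were Rspo3, Wnt11 and Wnt5a. Rspo3 was 8.97-fold higher in ES-FLB (log2 2.89, SE 0.14, adjusted p = 4.69e-18) and 4.82-fold higher in ES-HLB (log2 2.20, SE 0.14, adjusted p = 5.98e-15). Wnt11 was 3.19-fold higher (log2 1.63, SE 0.15) and 3.93-fold higher (log2 1.91, SE 0.15). Wnt5a differed less, at 1.34-fold (log2 0.41, SE 0.09, adjusted p = 0.00016) and 1.26-fold (log2 0.34, SE 0.09, adjusted p = 0.00135). In these genes every ES-derived library lay above every early library of its type, and the share of all genes that did so was not counted.

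Rspo1 and Sp5 did not move alike in the 2 types. Rspo1 was 8.16-fold higher in ES-FLB than in the early FLBs (log2 2.94, SE 0.22, adjusted p = 1.68e-12) but 1.80-fold lower in ES-HLB than in the early HLBs (log2 −0.81, SE 0.22, adjusted p = 0.00206). Sp5 was 3.35-fold higher in ES-HLB (log2 1.58, SE 0.25, adjusted p = 9.63e-07). In ES-FLB its difference was −0.50 (SE 0.25, adjusted p = 0.0663), past the threshold when ES-FLB replicate 3 was left out (log2 −0.71, adjusted p = 0.0193) and when only the compared groups were fitted (adjusted p = 0.0182). Wnt3a was called higher in ES-HLB (log2 1.00, adjusted p = 0.00017), on 3 to 5 reads per library against 0 reads in the early HLBs.

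Axin2 was called higher in ES-HLB, by 1.47-fold (log2 0.55, SE 0.19, adjusted p = 0.0128), although not without ES-HLB replicate 2 (log2 0.48, adjusted p = 0.0523). In ES-FLB it was 1.17 times the early FLB level, with every library above, and was not called (log2 0.23, interval of 2 SE −0.14 to 0.60, adjusted p = 0.271). The spread of Axin2 in this fit is shared with the heart, whose 3 libraries ran from 11.0 to 26.1. With only the compared groups in the fit the same difference had an adjusted p of 0.00171, and with CPM as deposited it was 0.54 (adjusted p = 0.0178). In both types every ES-derived library was thus above the early limb buds for Axin2 and below them for Tcf7 and Lef1.

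Against the E10.5 limb buds, Lef1 and Rspo3 were closer to the ES-derived cells than against the early ones, whereas Tcf7 and Wnt7a remained lower in vitro. Between ES-FLB and the E10.5 FLBs 8 of the 10 were called, 3 higher and 5 lower, against 68.1% of all genes (32.7% higher and 35.3% lower). Between ES-HLB and the E10.5 HLBs 8 were called, 6 higher and 2 lower, against 67.8% (32.8% higher and 35.1% lower). Lef1 was among those not called in either type, at −0.08 (interval −0.27 to 0.10) and 0.09 (interval −0.12 to 0.30), although with CPM as deposited the difference in ES-HLB was 0.24 and was called (adjusted p = 0.0402). Tcf7 was still 3.52-fold lower (log2 −1.77, SE 0.09) and 3.71-fold lower (log2 −1.86, SE 0.10). Wnt7a differed by −3.73 (SE 0.24) and −4.17 (SE 0.27), with the reads given above.

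Rspo3, far above the early limb buds in both types, was close to the E10.5 level. It was 1.31-fold lower in ES-FLB (log2 −0.38, SE 0.14, adjusted p = 0.0216), a call lost without ES-FLB replicate 1 (log2 −0.28, adjusted p = 0.123), without E10.5 FLB replicate 1 (log2 −0.28, adjusted p = 0.127) and with CPM as deposited (log2 −0.31, adjusted p = 0.0589). It was 1.40-fold higher in ES-HLB (log2 0.48, SE 0.16, adjusted p = 0.00972), but not without E10.5 HLB replicate 3 (log2 0.40, adjusted p = 0.0938). Rspo1 was 3.50-fold higher in ES-FLB (log2 1.77, SE 0.22, adjusted p = 7.91e-08) and not called in ES-HLB (log2 0.40, interval −0.10 to 0.90).

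Wnt11 stayed higher in vitro, 1.92-fold over the E10.5 FLBs (log2 0.92, SE 0.15) and 4.89-fold over the E10.5 HLBs (log2 2.18, SE 0.17). Wnt5a was 1.43-fold lower in ES-FLB (log2 −0.51, SE 0.09, adjusted p = 1.5e-05). In ES-HLB it was 1.17-fold higher (log2 0.22, SE 0.10, adjusted p = 0.0464), and that call was lost without replicate 1 (log2 0.16, adjusted p = 0.277) or 3 (log2 0.29, adjusted p = 0.0514) of the E10.5 HLBs and without replicate 2 (log2 0.19, adjusted p = 0.131) or 3 (log2 0.22, adjusted p = 0.0845) of ES-HLB. Axin2 was 1.59-fold higher in ES-FLB (log2 0.67, SE 0.19, adjusted p = 0.00408) and 1.75-fold higher in ES-HLB (log2 0.80, SE 0.21, adjusted p = 0.00234). Sp5 was 3.73-fold higher in ES-HLB (log2 1.73, SE 0.28) and not called in ES-FLB (log2 0.05, interval −0.44 to 0.55). Wnt3a was called lower in ES-FLB (log2 −0.62, adjusted p = 0.0145) on 1 to 3 reads per E10.5 FLB library, a call lost without E10.5 FLB replicate 1 (log2 −0.48, adjusted p = 0.0851), and higher in ES-HLB (log2 1.00, adjusted p = 0.000716).

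Within the embryo, Wnt7a, Lef1 and Tcf7 were lower and Rspo3 was higher at E10.5 than in the early limb buds, in both FLBs and HLBs. In the FLBs 8 of the 10 genes were called, 5 higher and 3 lower at E10.5, against 59.7% of all genes (24% higher and 35.6% lower). In the HLBs 5 were called, 1 higher and 4 lower, against 31% (10.3% higher and 20.6% lower). Rspo3 was 11.7-fold higher at E10.5 in the FLBs (log2 3.26, SE 0.14, adjusted p = 2.27e-18) and 3.44-fold higher in the HLBs (log2 1.72, SE 0.16, adjusted p = 1.48e-09). Wnt7a was 4.79-fold lower (log2 −2.18, SE 0.24) and 2.74-fold lower (log2 −1.41, SE 0.27). Tcf7 was 4.35-fold lower (log2 −2.11, SE 0.09) and 2.26-fold lower (log2 −1.17, SE 0.10). Lef1 was 3.35-fold lower (log2 −1.73, SE 0.09) and 2.08-fold lower (log2 −1.04, SE 0.11). In these genes the libraries of the 2 stages did not overlap in either limb, and the share of all genes without overlap was not counted.

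**Figure D3:**
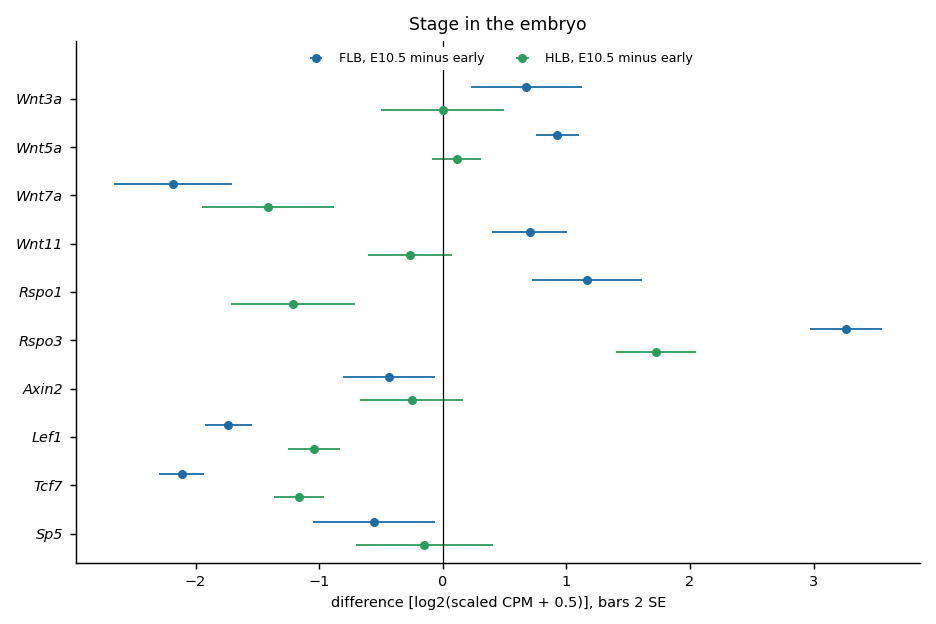
Difference between E10.5 and early limb buds for each gene, in log2(scaled CPM + 0.5) with bars of 2 SE, in FLBs (blue) and HLBs (green). The change is larger in the FLBs than in the HLBs for Rspo3, Lef1 and Tcf7, and Rspo1 lies on opposite sides of 0.

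The other genes split between limb types. Rspo1 was 2.33-fold higher at E10.5 in the FLBs (log2 1.17, SE 0.22, adjusted p = 5.74e-05) and 2.43-fold lower in the HLBs (log2 −1.21, SE 0.25, adjusted p = 0.000498). Wnt5a was 1.91-fold higher in the FLBs (log2 0.93, SE 0.09, adjusted p = 1.77e-09) and not called in the HLBs (log2 0.11, interval −0.08 to 0.31). Wnt11 was 1.66-fold higher in the FLBs (log2 0.70, SE 0.15, adjusted p = 0.000191) and not called in the HLBs (log2 −0.27, interval −0.61 to 0.08). Axin2 and Sp5 were not called in either limb, with differences of −0.44 and −0.56 in the FLBs and −0.25 and −0.15 in the HLBs. In the FLBs these sat close to the threshold (adjusted p of 0.0512 and 0.0529), and Sp5 passed it without E10.5 FLB replicate 2 (log2 −0.75, adjusted p = 0.0189), while Axin2 passed it with only the compared groups in the fit (adjusted p = 2.14e-06), as it did in the HLBs (adjusted p = 0.0272). Wnt3a was called in the FLBs (log2 0.68, adjusted p = 0.00966) on 1 to 3 reads per library, but not without E10.5 FLB replicate 1 (log2 0.53, adjusted p = 0.0626).

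Tests of the stage change in HLBs minus that in FLBs called 6 of the 10 genes, 2 higher and 4 lower, against 21.8% of all genes (12.6% higher and 9.23% lower). They were Rspo1 (log2 −2.37, SE 0.34, adjusted p = 1.11e-05), Rspo3 (log2 −1.54, SE 0.22, adjusted p = 5.84e-06), Wnt11 (log2 −0.97, SE 0.23, adjusted p = 0.00251), Wnt5a (log2 −0.82, SE 0.13, adjusted p = 8.96e-05), Tcf7 (log2 0.94, SE 0.14, adjusted p = 7.63e-06) and Lef1 (log2 0.69, SE 0.14, adjusted p = 0.000738). The FLBs thus changed more than the HLBs in Rspo3, Tcf7 and Lef1. By the figure legend the interval to E10.5 was longer for the early FLBs than for the early HLBs, so limb type and elapsed time cannot be told apart. Depth was lower at E10.5 in both limbs. Surface ectoderm genes went from between 390 and 491 to between 291 and 306 in the FLBs and from between 359 and 423 to between 278 and 302 in the HLBs (8 of 8 detected throughout), and apical ridge genes from between 60.2 and 73.9 to between 30.4 and 36.5 and from between 81.3 and 90.9 to between 58.6 and 59.0. Members with means in the other order were Krt5 (26.6 to 82.3 in the FLBs and 54.1 to 63.5 in the HLBs), Krt14 (3.18 to 14.9 and 3.90 to 7.39) and Fgf4 (0.0353 to 1.29 and 1.86 to 4.52). Their part in the falls of Wnt7a, Lef1 and Tcf7 was not tested.

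Hindlimb and forelimb types were compared at each stage and in vitro. By the figure legend the early HLBs were later than the early FLBs, so limb type and stage cannot be told apart in the early comparison. Between the early limb buds 7 of the 10 genes were called, 3 higher and 4 lower in the HLBs, against 18.6% of all genes (8.16% higher and 10.46% lower). Between the E10.5 limb buds 5 were called, 1 higher and 4 lower, against 22.1% (12.5% higher and 9.69% lower). Between ES-HLB and ES-FLB 6 were called, 5 higher and 1 lower, against 19.6% (10.7% higher and 8.85% lower).

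**Figure D4:**
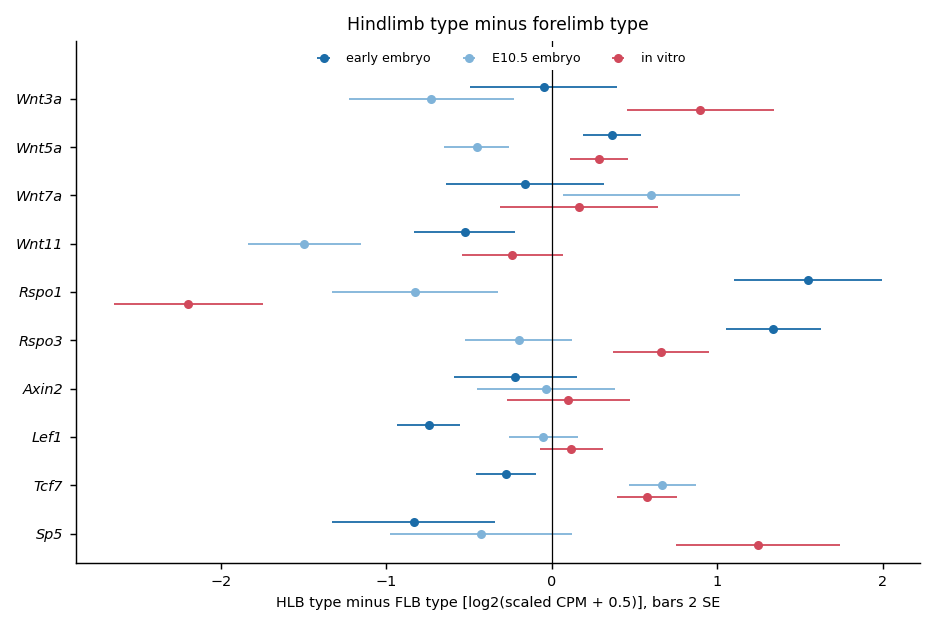
Hindlimb type minus forelimb type for each gene, in log2(scaled CPM + 0.5) with bars of 2 SE, in the early embryo (dark blue), at E10.5 (light blue) and in vitro (red). Rspo1 is to the right of 0 in the early embryo and far to the left in vitro, and Sp5 is to the left in the early embryo and to the right in vitro.

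Of the 10 genes, Rspo1 differed most between types in the early embryo and in vitro, and Wnt11 at E10.5. The early HLBs had 3.04 times the level of the early FLBs (log2 1.55, SE 0.22, adjusted p = 8.53e-06), whereas ES-HLB was 4.82-fold below ES-FLB (log2 −2.20, SE 0.22, adjusted p = 2.34e-08). The libraries did not overlap in either comparison. At E10.5 the HLBs were 1.86-fold lower (log2 −0.83, SE 0.25, adjusted p = 0.0183), on the same side as in vitro. That call was lost without replicate 1 (log2 −0.83, adjusted p = 0.107) or 3 (log2 −0.83, adjusted p = 0.0878) of the E10.5 HLBs and without E10.5 FLB replicate 3 (log2 −0.70, adjusted p = 0.0850). Rspo3 was higher in the hindlimb type in the early embryo, by 2.96-fold (log2 1.34, SE 0.14, adjusted p = 2.5e-08), and in vitro, by 1.59-fold (log2 0.66, SE 0.14, adjusted p = 0.00106), and was not called at E10.5 (log2 −0.20, interval −0.52 to 0.13).

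Of the 4 canonical genes, 3 were called lower in the early HLBs than in the early FLBs, and in vitro Sp5 and Tcf7 stood in the other order. In the early HLBs Lef1 was 1.67-fold lower (log2 −0.74, SE 0.09, adjusted p = 1.1e-06), Sp5 1.92-fold lower (log2 −0.83, SE 0.25, adjusted p = 0.015) and Tcf7 1.21-fold lower (log2 −0.28, SE 0.09, adjusted p = 0.0292). The Sp5 call was lost without early FLB replicate 1 (log2 −0.80, adjusted p = 0.0543) and without early HLB replicate 3 (log2 −0.76, adjusted p = 0.0666). The Tcf7 call was lost without early FLB replicate 2 (log2 −0.21, adjusted p = 0.169), without early HLB replicate 1 (log2 −0.19, adjusted p = 0.233) and with CPM as deposited (log2 −0.22, adjusted p = 0.0731). In vitro Sp5 was 2.50-fold higher in ES-HLB (log2 1.25, SE 0.25, adjusted p = 0.000338) and Tcf7 1.51-fold higher (log2 0.57, SE 0.09, adjusted p = 1.38e-05), while Lef1 was not called (log2 0.12, interval −0.07 to 0.31). At E10.5 Tcf7 was 1.59-fold higher in the HLBs (log2 0.67, SE 0.10, adjusted p = 1.7e-05), and neither Lef1 (log2 −0.05) nor Sp5 (log2 −0.43) was called. Axin2 was not called in any of the 3 comparisons, with differences of −0.22, −0.04 and 0.10, and with only the compared groups in the fit it was called in the early embryo (adjusted p = 0.0186).

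Among the ligands, Wnt5a was 1.29-fold higher in the early HLBs (log2 0.36, SE 0.09, adjusted p = 0.00413) and 1.37-fold lower in the E10.5 HLBs (log2 −0.45, SE 0.10, adjusted p = 0.00175). In vitro it was 1.22-fold higher in ES-HLB (log2 0.29, SE 0.09, adjusted p = 0.0221), but not without ES-FLB replicate 1 (log2 0.23, adjusted p = 0.108), ES-HLB replicate 2 (log2 0.25, adjusted p = 0.0949) or ES-HLB replicate 3 (log2 0.28, adjusted p = 0.0598). Wnt11 was lower in the early HLBs, by 1.45-fold (log2 −0.53, SE 0.15, adjusted p = 0.0129), a call lost without early FLB replicate 3 (log2 −0.49, adjusted p = 0.0540) and without early HLB replicate 3 (log2 −0.38, adjusted p = 0.120). At E10.5 it was 2.99-fold lower in the HLBs (log2 −1.49, SE 0.17, adjusted p = 1.9e-07), and in vitro it was not called (log2 −0.24, interval −0.54 to 0.07). Wnt7a was not called between types, at −0.16 in the early embryo, 0.60 at E10.5 and 0.16 in vitro, although both E10.5 HLB libraries were above all E10.5 FLB libraries and the adjusted p was 0.0099 with only those groups in the fit. Wnt3a was called in ES-HLB over ES-FLB (log2 0.90, adjusted p = 0.00365) and in the E10.5 FLBs over the HLBs (log2 −0.73, adjusted p = 0.0347), on at most 5 and 3 reads per library, and the E10.5 call was lost on leaving out replicate 1 (log2 −0.58, adjusted p = 0.125) or 3 (log2 −0.71, adjusted p = 0.0762) of the FLBs or replicate 1 (log2 −0.73, adjusted p = 0.142) or 3 (log2 −0.73, adjusted p = 0.117) of the HLBs.

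The difference between types in vitro, minus that in the early embryo, was itself tested. It was called for 6 of the 10 genes, 4 higher and 2 lower, against 19.8% of all genes (11.2% higher and 8.53% lower). The early embryo part holds the difference in stage given by the figure legend along with limb type. The values were −3.74 for Rspo1 (SE 0.32, adjusted p = 1.28e-09), 2.08 for Sp5 (SE 0.35, adjusted p = 4.41e-05), 0.86 for Lef1 (SE 0.13, adjusted p = 2.18e-05) and 0.85 for Tcf7 (SE 0.13, adjusted p = 8.54e-06). Rspo3, at −0.68 (SE 0.20, adjusted p = 0.0167), lost its call without early HLB replicate 1 (log2 −0.49, adjusted p = 0.0812) and without ES-FLB replicate 2 (log2 −0.61, adjusted p = 0.0514). Wnt3a, at 0.95 (adjusted p = 0.0308), rests on at most 5 reads per library, and its call was lost without early FLB replicate 3, any early HLB replicate, ES-FLB replicate 1 or 2, or ES-HLB replicate 2 or 3, with values from 0.89 to 0.95 and adjusted p-values from 0.0528 to 0.0695.

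Marker levels differed between the ES-derived types as well. Surface ectoderm genes summed to 219 to 237 in ES-HLB and 109 to 167 in ES-FLB, apical ridge genes to 5.49 to 5.85 and 1.79 to 1.91, 5 neural tube genes to 24.3 to 29.9 (4 detected in every library) and 9.58 to 13.0 (2 detected), and 4 pluripotent cell genes to 45.6 to 65.9 and 10.47 to 16.1. Epcam was the one member with the other order, at 14.7 in ES-HLB and 16.1 in ES-FLB. None of these genes was at 0 in a whole group. Their part in the differences of Sp5, Tcf7 and Wnt3a between ES-HLB and ES-FLB was not tested.

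Other tissues of the same age were set against the mean of the E10.5 FLBs and HLBs. TB differed in 7 of the 10 genes, 5 higher and 2 lower, against 45.8% of all genes (22.5% higher and 23.4% lower). Wnt3a, which passed the filter only through TB, was higher by 5.21 (SE 0.20), on 157 to 246 reads against at most 3 per limb bud library. It is counted among the 7, but its call is no separate result. Sp5 was 7.30-fold higher (log2 2.73, SE 0.22, adjusted p = 6.6e-12), Rspo3 2.01-fold higher (log2 0.99, SE 0.13, adjusted p = 1.64e-07) and Lef1 1.79-fold higher (log2 0.84, SE 0.08, adjusted p = 3.07e-09). Rspo1 was 7.00-fold lower (log2 −2.40, SE 0.20, adjusted p = 8.27e-11). The calls of Wnt5a (log2 0.27, adjusted p = 0.00726) and Tcf7 (log2 −0.30, adjusted p = 0.00323) were small, with libraries that overlapped, and were lost without TB replicate 2 (Wnt5a, log2 0.21, adjusted p = 0.0593) and without TB replicate 1 (Tcf7, log2 −0.21, adjusted p = 0.0579). TB also held neural tube genes at 197 to 211 (5 of 5 detected), against at most 29.9 elsewhere, and their part in these levels was not tested.

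In BA 8 of the 10 genes were called, 1 higher and 7 lower, against 33% of all genes (16% higher and 17% lower). Wnt7a was 11.6-fold lower (log2 −2.91, SE 0.22, adjusted p = 1.6e-12), Wnt11 3.19-fold (log2 −1.39, SE 0.14), Tcf7 3.07-fold (log2 −1.55, SE 0.08), Rspo3 3.06-fold (log2 −1.55, SE 0.13) and Wnt5a 2.30-fold (log2 −1.18, SE 0.08). Sp5 was 2.00-fold lower (log2 −0.79, SE 0.22, adjusted p = 0.00636), but not without BA replicate 2 (log2 −0.56, adjusted p = 0.0790), and Rspo1 1.73-fold lower (log2 −0.66, SE 0.20, adjusted p = 0.0123), but not without BA replicate 3 (log2 −0.63, adjusted p = 0.0535). Wnt3a was called higher (log2 0.77, adjusted p = 0.00342) on 3 to 7 reads per library. Axin2 (log2 0.23, interval −0.10 to 0.57) and Lef1 (log2 −0.08, interval −0.25 to 0.09) were not called, although Axin2 was with only the compared groups in the fit (adjusted p = 0.00514).

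In Ca 7 of the 10 genes were called, 1 higher and 6 lower, against 76.4% of all genes (37.2% higher and 39.2% lower). Each of the 4 targets and TCF/LEF factors was lower, Axin2 by 5.42-fold (log2 −2.49, SE 0.17, adjusted p = 1.1e-10), Sp5 by 4.42-fold (log2 −1.60, SE 0.22), Tcf7 by 3.79-fold (log2 −1.85, SE 0.08) and Lef1 by 2.66-fold (log2 −1.41, SE 0.08). Wnt7a was 15.8-fold lower (log2 −3.25, SE 0.22) and Wnt5a 1.65-fold lower (log2 −0.72, SE 0.08), while Wnt11 was 2.96-fold higher (log2 1.71, SE 0.14, adjusted p = 6.15e-13). The Ca libraries held 3, 2 and 9 reads of Wnt7a and 2, 4 and 9 reads of Sp5, so the folds of these genes rest on few reads. Rspo3 was not called (log2 0.10, interval −0.16 to 0.36). Rspo1 was not called (log2 0.35, adjusted p = 0.121), but passed the threshold without Ca replicate 2 (log2 0.56, adjusted p = 0.0208) and with a replicate block (log2 0.39, adjusted p = 0.0495). Wnt3a, on at most 3 reads, was not called (log2 −0.36). It passed the threshold without E10.5 FLB replicate 2 (log2 −0.44, adjusted p = 0.0478), with a pseudocount of 0.1 (log2 −1.03, adjusted p = 0.0268), with no variance trend (adjusted p = 0.0283) and with the left-out library included (log2 −0.44, adjusted p = 0.0433). The summed erythroid level was 22399 to 32561 in Ca and 2546 to 3783 in the E10.5 limb buds (4 of 4 detected), and its part was not tested.

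**Figure D5:**
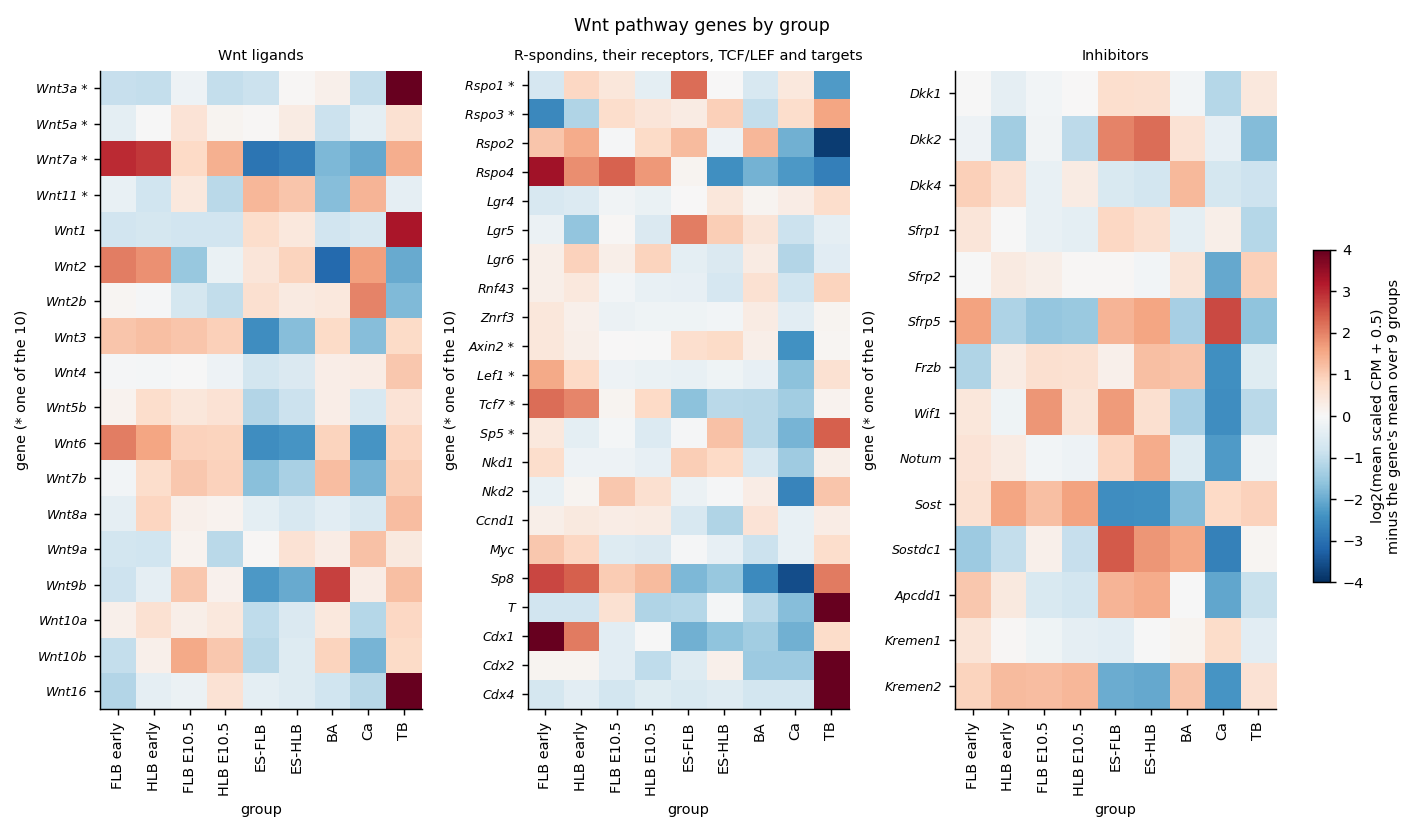
Group means of Wnt pathway genes that reached 1 scaled CPM in a group, as log2(mean scaled CPM + 0.5) minus the mean of the gene over the 9 groups (colour, limited to −4 and 4), with genes as rows and groups as columns. In ES-FLB and ES-HLB many ligands are blue and several inhibitors red, and TB is red for Wnt3a, Wnt1, Wnt16, T, Cdx2 and Cdx4.

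The other 79 listed genes of the pathway, 77 of them tested, give the surroundings of the 10. Among 14 tested ligands outside the 10, ES-FLB had 3 higher and 8 lower than the early FLBs, with a median difference of −0.95 against −0.05 for all genes (35.2% called higher and 40.9% lower), and ES-HLB had 2 higher and 10 lower than the early HLBs, with a median of −1.001 against −0.04 (34.6% and 39.9%). The same shares stand beside the further counts of these 2 comparisons. The largest fall was that of Wnt6, an ectodermal ligand, from 67.3 to 2.41 in the forelimb type (log2 −4.62, SE 0.49, adjusted p = 9.23e-08) and from 48.1 to 2.72 in the hindlimb type (log2 −3.92, SE 0.49, adjusted p = 8.92e-07). Wnt3, the ectodermal ligand whose protein was added in culture, had 0.494 in ES-FLB against 11.6 in the E10.5 FLBs (log2 −3.63, SE 0.50, adjusted p = 3.91e-06).

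Of 14 tested secreted and surface inhibitors, 7 were higher and 4 lower in ES-FLB than in the early FLBs (median 0.32), where 35.2% of all genes were called higher and 40.9% lower, and 9 were higher and 3 lower in ES-HLB than in the early HLBs (median 0.85), against 34.6% and 39.9% of all genes. Dkk2, an Lrp5 and Lrp6 antagonist, rose from 11.97 to 56.9 (log2 2.22, SE 0.29, adjusted p = 1.15e-06) and from 4.99 to 67.7 (log2 3.65, SE 0.29, adjusted p = 1.02e-09). Sostdc1, which binds the same co-receptors, rose from 2.01 to 36.5 (log2 3.92, SE 0.23) and from 2.996 to 22.6 (log2 2.75, SE 0.23). Its relative Sost fell in ES-HLB from 15.4 to 0.459 (log2 −4.06, SE 0.22). Sfrp5, a soluble Frizzled-like inhibitor, was 4.43 in ES-HLB and 0.197 in the early HLBs (log2 2.82, SE 0.26). In the forelimb type it was not higher in vitro, at 3.72 in ES-FLB and 4.49 in the early FLBs.

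The remaining R-spondins were, like Rspo1, higher in ES-FLB than in ES-HLB. Rspo4 was 0.726 in ES-HLB and 24.1 in the early HLBs (log2 −4.35, SE 0.37, adjusted p = 1.94e-09), and 6.69 in ES-FLB (ES-HLB minus ES-FLB log2 −2.56, SE 0.37, adjusted p = 4.32e-05). Rspo2, the R-spondin known for limb outgrowth, was 42.5 in ES-FLB and 14.96 in ES-HLB (log2 −1.48, SE 0.37, adjusted p = 0.00854), against 37.6 in the early FLBs and 48.9 in the early HLBs. Its difference between types in vitro minus that in the early embryo was also called (log2 −1.85, SE 0.53, adjusted p = 0.0190). Thus 3 of the 4 R-spondins were higher in ES-FLB than in ES-HLB, Rspo3 being the exception. Of all genes, 8.85% were called higher in ES-FLB and 10.7% higher in ES-HLB. Of the 5 R-spondin receptors and ligases, Lgr5, itself a Wnt target, rose from 2.74 to 15.4 in ES-FLB (log2 2.29, SE 0.26, adjusted p = 1.55e-09), and 2 of 5 were higher and 3 lower in each ES-derived group than in its early limb bud.

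Other canonical targets did not move as a group. Of the 9, ES-FLB had 1 higher and 5 lower than the early FLBs (median −0.68), and ES-HLB 2 higher and 4 lower than the early HLBs (median −0.14). Cdx1 fell from 48.2 to 0.0794, a level under the floor, in ES-FLB (log2 −6.42, SE 0.31), and was 8.89 in the early HLBs (early HLBs minus FLBs log2 −2.38, SE 0.31, adjusted p = 1.22e-06). Sp8, also counted above among the ridge genes, fell from 36.4 to 1.18 in ES-FLB (log2 −4.46, SE 0.17). In the embryo Cdx1 fell between stages, to 1.17 in the FLBs (log2 −5.05, SE 0.31) and to 1.71 in the HLBs (log2 −2.09, SE 0.35), as did Wnt2, from 37.5 to 2.77 (log2 −3.58, SE 0.33) and from 32.2 to 7.21 (log2 −1.95, SE 0.37). In TB 7 of the 9 were higher than in the E10.5 limb buds and 0 lower (median 1.02), against 22.5% and 23.4% of all genes, led by T at 128 against 1.24 (log2 6.52, SE 0.26), Cdx2 at 29.3 against 0.340 (log2 5.19, SE 0.25) and Cdx4 at 25.1 against 0.0458 (log2 5.55, SE 0.20), genes of the posterior body axis. T and Cdx2 were also among the tail bud marker genes used to check the labels, so their rise in TB is no separate result. Cdx4 passed the filter on low values only through TB, with means of at most 0.126 in every other group. The count of 7 and its median include these genes and are no separate result either. The 12 Frizzled and Lrp receptors had 4 higher and 3 lower in ES-FLB than in the early FLBs (median 0.17). In ES-HLB 6 were higher and 3 lower than in the early HLBs (median 0.23). In Ca 55 of the 77 genes were lower than in the E10.5 limb buds and 14 higher, against 39.2% and 37.2% of all genes.

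Likeness of pattern was measured as Pearson's r of log2(scaled CPM + 0.5) over the 26 libraries, which share groups and depth, and is given as a description. The gene most like Wnt3a was Blnk (r = 0.977), followed by Neurog2 (r = 0.968), at 12.9 and 22.3 scaled CPM in TB and under 1 in every other group. Those most like Wnt7a were Metrn (r = 0.967) and Bzw1 (r = 0.959), and those most like Wnt11 were Yipf5 (r = 0.900) and Airn (r = 0.880). Rspo1 was nearest to Crispld2 (r = 0.862) and Mesdc1 (r = 0.859), and Rspo3 to Pdzd2 (r = 0.914) and Epb4.1l2 (r = 0.896). Crispld2 followed Rspo1 in the order of limb types, with 45.1 in ES-FLB and 17.5 in ES-HLB against 7.58 in the early FLBs and 19.5 in the early HLBs.

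Among the canonical genes, Axin2 was nearest to Adar (r = 0.980) and Gli2 (r = 0.978), the latter a transcription factor of hedgehog signalling that had 18.1 in Ca and 71.9 to 141 in the other groups. Lef1 was nearest to Pdcd11 (r = 0.965) and Heatr1 (r = 0.964), Tcf7 to Rpl14 (r = 0.979) and Ppid (r = 0.978), and Sp5 to Ptk7 (r = 0.933) and Ifitm1 (r = 0.903). Among the 10 genes themselves the highest r was that of Tcf7 with Wnt7a (0.954), followed by Tcf7 with Lef1 (0.802) and Lef1 with Wnt7a (0.749). Axin2 and Tcf7 had an r of 0.242, so the 4 canonical genes did not share 1 pattern over these groups.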

How the data were processed

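RNA-seq libraries were assigned to 9 groups by their labels, and 26 of 27 were used. The authors made stranded mRNA libraries, mapped reads with HISAT2 2.0.4 to mm10, counted them per gene with Cuffdiff and deposited CPM, which sum to 1000000 per library. The values were not treated as counts. Low values are spaced by the worth of 1 read, and 95.7% to 99.5% of values up to 20 reads were whole within 0.1 of a read, which gave the depths.

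The scaling of libraries to each other was an unweighted TMM (30% of ratios and 5% of intensities trimmed). The 14681 genes that reached 1 CPM in 2 or more libraries were tested on log2(scaled CPM + 0.5) with limma 3.58.1 in R 4.3.3, with variance trend and robust estimation, in 1 fit of 9 group means, and called at an adjusted p under 0.05 (Benjamini-Hochberg over all genes tested). The fit was also run on simulated data with few changed genes in 1 group. That setting is simpler than these data, so the run checks the code only. Intervals are 2 SE. Replicates of a group had no identical values. Levels, promoter windows and figures used Python 3.11.15, pandas 2.3.3 and matplotlib 3.10.9. Gene positions and promoters are from RefSeq and overlaps from GENCODE on the same assembly.

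The 10 genes and the pathway and marker lists were chosen with earlier results of these data known. Named besides the 10 are, per comparison, the 3 other listed genes with the largest called change in each direction and a level of 4 CPM or more in the higher group, and for each of the 10 the 2 genes of highest r among genes with at least 4 CPM in the highest group. Not every gene this rule names is described. Alternatives were another scaling, filter, pseudocount, threshold or variance model, only the compared groups, a replicate block, the left-out library with its lost genes missing, and each replicate left out. Weights from estimated depth were added after seeing the data. The genes most like Wnt5a are not reported here.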

Additional observations from a re-analysis of the deposited data

Results flagged for a closer look

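The difference between hindlimb and forelimb types was not the same in vitro and in the early embryo for 6 of the 10 genes, by the test of that difference itself (limma, in vitro minus early embryo), against 19.8% of all genes. The Wnt3a and Rspo3 calls were lost on leaving out single libraries, and the count was then as low as 4. The log2 values were −3.74 for Rspo1, 2.08 for Sp5, 0.95 for Wnt3a, 0.86 for Lef1, 0.85 for Tcf7 and −0.68 for Rspo3. Rspo1 was higher in 3 of 3 early HLB than early FLB libraries and lower in 3 of 3 ES-HLB than ES-FLB libraries, with no overlap in either case. Sp5 showed the reverse order of types. The figure legend gives different stages for the early FLBs and HLBs, so limb type and stage cannot be told apart there. At E10.5 Rspo1 was on the same side as in vitro (log2 −0.83), a call lost on leaving out single libraries.

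The change from early to E10.5 also differed between limb types for 6 genes (HLB minus FLB), against 21.8% of all genes. The log2 values were −2.37 for Rspo1, −1.54 for Rspo3, −0.97 for Wnt11, −0.82 for Wnt5a, 0.94 for Tcf7 and 0.69 for Lef1. The labels give 1 stage for both early limb buds and the figure legend gives 2, so elapsed time and limb type cannot be told apart.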

How the results depend on the processing

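Over 140 values, 10 genes in each of 14 comparisons, no called value changed direction under the alternatives run. Scaling by the median of ratios left all 140 on their side of the threshold. The replicate block left 138 and brought 2 past it, Axin2 in the FLB stage comparison (log2 −0.44, adjusted p = 0.0439) and Rspo1 in Ca (log2 0.39, adjusted p = 0.0495). Deviations of libraries with the same number had r from −0.083 to 0.123 (100 pairs, median 0.015). Those with different numbers had r from −0.161 to 0.149 (200 pairs, median −0.010). No pairing over all genes was seen, but a weak one, or one in single genes, could not be seen this way. Fitting only the compared groups gave 126 values, since the rest were under the filter there. The rest were Wnt3a in every comparison without TB and Wnt7a between the ES-derived types. Of the 126 values this brought 11 past the threshold and lost 0, but calls of Wnt3a outside TB could not be lost in this way. A pseudocount of 2 brought 5 past the threshold and lost 5. Leaving out 1 library at a time lost 40 calls and gained 4. At an adjusted p of 0.001, members called fell to 5 for ES-FLB against the E10.5 FLBs (48.3% of all genes), 5 for ES-HLB against the E10.5 HLBs (49.3%), 3 between the early limb buds, 2 between the E10.5 limb buds, 3 between the ES-derived types and 5 for BA. Weights from estimated depth gave 3 instead of 5 between the E10.5 limb buds, where the share of all genes called was 11.4% instead of 22.1%, and 32.5% instead of 18.6% of all genes between the early limb buds. The cause was not tested. Without 1 library, members called ranged from 3 to 5 between the E10.5 limb buds and from 4 to 6 for the difference between in vitro and early embryo.

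At an adjusted p of 0.001 the share of all genes called was 11.6% instead of 31% for the HLB stages, 6.65% instead of 18.6% between the early limb buds, 5.41% instead of 22.1% between those of E10.5, 6.85% instead of 19.6% between the ES-derived types, 25.1% instead of 45.8% for TB, 13.4% instead of 33% for BA, 6.46% instead of 19.8% for the difference between in vitro and embryo, and 5.71% instead of 21.8% for the stage change between limbs. CPM as deposited moved the median of all genes from −0.049 to 0.220 for ES-FLB against the early FLBs, from −0.042 to 0.184 for ES-HLB, from −0.074 to 0.130 for the FLB stages and, for ES-HLB against the E10.5 HLBs, to 0.129. It moved the share of called genes that were higher from 46.3% to 62.9% for ES-FLB and from 46.4% to 61.4% for ES-HLB against early limb buds, from 48.3% to 59.6% for ES-HLB against the E10.5 HLBs, from 40.3% to 66.5% and from 33.4% to 58.1% for the FLB and HLB stages, from 43.8% to 60.8% between the early and from 56.2% to 28.5% between the E10.5 limb buds (46.2% with the median of ratios), from 49.0% to 60.4% for TB, from 48.6% to 65.1% for BA, from 56.9% to 44.8% for the difference between in vitro and embryo and from 57.7% to 26.3% for the stage change between limbs. Count tests of both planned kinds were not run, since whole reads could not be recovered exactly from the CPM. Depth limits Wnt3a outside TB and Wnt7a in the ES-derived cells, where at most 7 and 3 reads were found per library. It also limits Wnt7a in BA and Ca, with at most 8 and 9 reads, and Sp5 in Ca, with at most 9.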

Other observations

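Deposited values in the left-out library of the E10.5 HLBs (replicate 2), before scaling, were 190 CPM for Wnt5a, 134 for Axin2, 120 for Tcf7, 87.9 for Lef1, 25.7 for Rspo3, 13.1 for Rspo1 and 3.28 for Sp5. Wnt3a had 1 read there, and Wnt7a and Wnt11 lie in the missing stretch. Because its total covers fewer genes, these CPM cannot be set beside those of the other libraries.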
